A study of Mus musculus with 6 samples.

Results

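Cohesin is a ring-shaped protein complex that holds sister chromatids together and extrudes DNA loops. The 10 genes described here encode its SMC subunits (Smc1a, Smc3), its kleisin (Rad21), its alternative STAG subunits (Stag1, Stag2), its loader (Nipbl), its releaser (Wapl), the paired regulators that work with both (Pds5a, Pds5b), and Ctcf, the zinc finger protein at whose binding sites loop extrusion tends to stop. They were taken by symbol from 54232 gene IDs counted per library, and all 10 were found, under 1 ID each, and passed the filter on low counts that left 16150 genes. The libraries come from C57/B6 mouse fetal liver cells of E13.5 embryos from which cells carrying the red cell antigen Ter-119 had been removed. The day 0 group holds 3 libraries of these untreated cells. The 30 h group holds 3 libraries of the same kind of cells kept in medium with erythropoietin, with the solvent DMSO added at 24 h for the last 6 h. The labels name no genetic change in either group and call all the cells progenitor cells. Nothing in the labels tells whether the 3 libraries of a group are from different animals or cultures, so the p-values speak only to the variation among these libraries, which may be technical.

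Loop extrusion by cohesin lasts as long as the ring stays on DNA. Nipbl, with its partner Mau2, promotes loading and drives extrusion, Wapl opens the ring and takes it off, and Pds5 proteins recruit Wapl but also the enzymes that acetylate Smc3 and lock the ring. Ctcf bound in the right orientation halts the moving ring, which gives loop anchors and domain boundaries. Erythroblasts divide several times while their nucleus condenses. Cohesin is needed for chromosome segregation in such divisions, and its part in the folding of the shrinking nucleus was not tested.

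The RefSeq promoter table (build GRCm38.p6) held an entry for 7 of the 10 genes. The 250 bases before the start site are shown for Wapl and Pds5b, because among those 7 genes they had the highest and the lowest log2 change. Both are written 5′ to 3′ on the gene's strand, with CCAAT boxes (CCAAT or its reverse complement) and GC boxes (GGGCGG or its reverse complement) in capitals.
Wapl, chr14:34673678-34673927, plus strand: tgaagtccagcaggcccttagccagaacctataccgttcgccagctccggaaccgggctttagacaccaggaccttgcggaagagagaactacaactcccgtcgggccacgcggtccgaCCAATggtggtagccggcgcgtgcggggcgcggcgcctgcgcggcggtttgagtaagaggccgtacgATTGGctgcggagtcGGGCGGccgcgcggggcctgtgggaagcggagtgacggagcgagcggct
Pds5b, chr5:150673577-150673826, plus strand: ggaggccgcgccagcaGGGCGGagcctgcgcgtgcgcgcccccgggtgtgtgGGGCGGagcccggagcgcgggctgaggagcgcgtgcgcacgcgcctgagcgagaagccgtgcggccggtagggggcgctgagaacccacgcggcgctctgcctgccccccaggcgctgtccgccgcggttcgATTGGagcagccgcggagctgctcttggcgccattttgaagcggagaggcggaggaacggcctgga
A GC box lay in all 7 promoters and a CCAAT box in 4 (Wapl, Pds5b, Stag1 and Smc1a), against 32.7% and 33.8% of the 32851 promoters of the same length in the table. The Wapl window held 2 CCAAT boxes, starting 131 and 64 bases before the start site, and Pds5b held 1, at 66 bases. Both strands were searched for exact matches to 5 other motifs, and no exact match lay in the 7 windows. The erythroid zinc finger site AGATAA occurred in 9.99% of all promoters, the ETS factor site CCGGAAG in 6.91%, the basal element TATAAA in 12.4%, the E-box CACGTG in 6.02% and the core of the CTCF motif in 0.35%. The 7 windows were rich in G and C, from 56.8% in Smc1a to 80.4% in Pds5a, where the median promoter had 52.4%.

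Levels are given as TMM-scaled CPM for comparisons of 1 gene between libraries, and as scaled FPKM (the same per kilobase of exon) for comparisons between genes. Scaled CPM are counts brought to a common library size, which TMM sets on the assumption that most genes do not change. Between the groups, 74.5% of all genes tested differed (edgeR adjusted p below 0.05), so that assumption was in doubt here. Library totals ranged from 27754279 to 29949173 counts at day 0 and from 19241780 to 24154481 at 30 h. Counts of the 10 genes ranged from 1000 to 16483 per library, so at 30 h counting error was small beside the spread between libraries. The day 0 libraries lay closer together, and part of their spread may be counting error. The common biological coefficient of variation was 5.28% within day 0 and 20.5% within 30 h. Replicate 3 stood apart at 30 h: its globin genes took 13.2% of counts, against 8.73% and 9.28% in replicates 1 and 2 and at most 0.130% at day 0. All 10 genes had their lowest 30 h CPM in replicate 3 and their highest in replicate 1, whereas 43.5% and 36.9% of all tested genes did. Each result below is therefore also given without 30 h replicate 3 where that changes the call.

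Of the 10 genes, 4 were higher at 30 h, namely Wapl, Nipbl, Rad21 and Stag2, and none was lower (edgeR quasi-likelihood test, adjusted p below 0.05 over all genes). Of all genes tested, 34.4% were higher and 40.1% lower, together 74.5%, so the share called higher among the 10 was near that background and the share called in either direction was below it. The groups did not overlap for these 4 genes, all with 30 h above, against 36.3% of all genes tested with 30 h above and 43.4% with 30 h below, together 79.7%. At an unadjusted edgeR p below 0.05 the same 4 genes were higher and none was lower. DESeq2 called 5 higher and none lower, against 5846 higher and 6369 lower of all 16150 genes tested. Without 30 h replicate 3, 8 were higher and none lower, against 6233 higher and 7008 lower of 16824 genes tested. Scaled by library totals alone, 3 were higher and 2 lower, against 3601 higher and 8791 lower of 16150. The median log2 change was 0.42 for the 10 genes and -0.09 for all genes tested. In bulk samples, a change in the number of cells of a type and a change in RNA per cell cannot be told apart. Summed CPM of 9 markers of maturing erythroid cells went from between 1063 and 1207 at day 0 to between 112880 and 164810 at 30 h, and 9 of 9 were higher. Progenitor markers, the cell type the labels name, went from between 805 and 856 to between 238 and 299, and 5 of 5 were lower. Hepatoblast markers went from between 13236 and 14981 to between 768 and 2226 (6 of 6 lower), mesenchymal markers from between 1029 and 1326 to between 14.6 and 41.9 (4 of 5 lower) and endothelial markers from between 152 and 175 to between 28.2 and 35.4 (5 of 5 lower). Of 4 macrophage markers tested 2 were higher, with summed CPM of all 5 listed from between 97.9 and 109 to between 123 and 173. Of 5 megakaryocyte markers 1 was higher and 2 lower (from between 487 and 582 to between 541 and 938), and of 5 granulocyte and mast cell markers 1 was higher and 3 lower (from between 2744 and 2834 to between 2078 and 2818). Of 4 B lymphoid markers 1 was lower, with summed CPM at or below 7.10 in all libraries. None of the markers was at 0 in all libraries. Stab2, an endothelial scavenger receptor, went from between 665 and 911 counts to 0, 2 and 3. Cd163, a macrophage receptor, had at most 2 counts in any library, and the part of these cell types in the results was not tested.

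**Figure D1:**
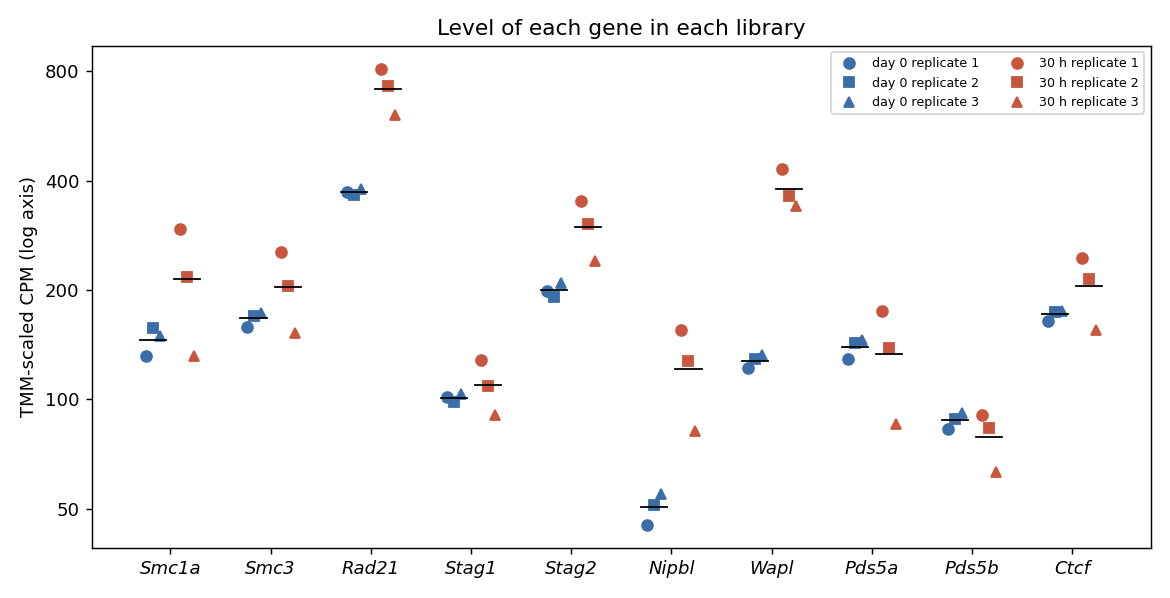
TMM-scaled CPM (log axis) of the 10 genes in each of the 6 libraries, with day 0 in blue, 30 h in red, a marker shape for each replicate and a black line at the group mean. The day 0 libraries lie close together, and the 30 h libraries spread widely, with replicate 3 lowest for all 10 genes.

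Wapl (ENSMUSG00000041408, chromosome 14, 34673928 to 34747983, mm10), which takes cohesin off DNA, had the largest rise of the 10. Its CPM was 122, 129 and 132 in the day 0 libraries and 432, 362 and 341 in 30 h replicates 1, 2 and 3. Every 30 h library was far above every day 0 library, and replicate 3 was only slightly below replicate 2. The rise was 2.96-fold, a log2 change of 1.57 ± 0.12 (SE; edgeR adjusted p = 1.13e-05, n = 3 per group), higher than that of 88.9% of genes tested. The call held under all 18 alternative settings, between 1.08 with library totals only and 1.64 without 30 h replicate 3 on the log2 scale.

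Nipbl (ENSMUSG00000022141, chromosome 15, 8290617 to 8444463), which loads cohesin and drives extrusion, rose next most. It had 45.1, 51.3 and 54.9 CPM at day 0 and 155, 127 and 81.7 CPM at 30 h. The groups did not overlap, but replicate 3 lay nearer to the day 0 libraries than to replicate 1. The mean rise was 2.41-fold (log2 change 1.27 ± 0.22 SE, edgeR adjusted p = 0.00102). Mau2, the partner subunit of the loader, rose as well, from 55.9 ± 3.22 to 143 ± 16.1 CPM (SD, n = 3 each, edgeR adjusted p = 2.12e-05). Both subunits of the loader were called higher.

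Rad21 (ENSMUSG00000022314, chromosome 15, 51962240 to 51991747), the kleisin that closes the ring, was the most abundant of the 10 at both times. It had 372, 366 and 379 CPM at day 0 and 813, 727 and 605 CPM at 30 h, with no overlap between the groups. The rise was 1.92-fold (log2 change 0.94 ± 0.12 SE, edgeR adjusted p = 0.000211). The calls of Rad21, Nipbl and Wapl were kept with library totals only, with the GC trend removed and in a test against a 1.5-fold change.

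The SMC subunits, which form the arms and the ATPase heads of the ring, did not pass the test. Smc1a (ENSMUSG00000041133, chromosome X, 152016428 to 152062694) had 132, 157 and 149 CPM at day 0 and 295, 217 and 131 CPM at 30 h. Replicate 3 lay just below the lowest day 0 library and the other 30 h libraries lay above all 3. The log2 change was 0.55, with a 95% interval from -0.05 to 1.15 (edgeR adjusted p = 0.0835). Smc3 (ENSMUSG00000024974, chromosome 19, 53600398 to 53645833) showed the same arrangement, with 158, 170 and 173 CPM at day 0 and 254, 206 and 153 CPM at 30 h. Its log2 change was 0.29 (95% interval -0.12 to 0.70, edgeR adjusted p = 0.165). Without 30 h replicate 3 both passed, at 0.81 for Smc1a and 0.46 for Smc3 (edgeR adjusted p = 0.000902 and 0.000723). Smc1a also passed with RLE size factors (0.59, adjusted p = 0.0467) and with DESeq2 (0.59, adjusted p = 0.0287), whereas Smc3 stood at -0.20 when scaled by totals alone and at -0.08 once the GC trend was taken out.

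The STAG proteins bind Rad21 and link cohesin to Ctcf, and a ring carries either Stag1 or Stag2. Stag2 (ENSMUSG00000025862, chromosome X, 42149317 to 42277185) had 199, 192 and 209 CPM at day 0 and 351, 303 and 240 CPM at 30 h, without overlap. It rose 1.49-fold (log2 change 0.58 ± 0.14 SE, edgeR adjusted p = 0.00649). This call was lost when libraries were scaled by totals alone (0.09), and when the GC trend was taken out (-0.05). Stag1 (ENSMUSG00000037286, chromosome 9, 100597798 to 100959375) had 101, 98.3 and 104 CPM at day 0 and 128, 109 and 90.8 CPM at 30 h, with replicate 3 below day 0. Its log2 change was 0.11 (95% interval -0.20 to 0.42, edgeR adjusted p = 0.459). It was called higher without 30 h replicate 3 (0.24, adjusted p = 0.0122) and lower with library totals only (-0.37, adjusted p = 0.0401), so its direction depended on scaling.

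The Pds5 proteins were the only members with a change below 0. Pds5a (ENSMUSG00000029202, chromosome 5, 65605721 to 65698273) had 129, 143 and 146 CPM at day 0 and 175, 138 and 85.8 CPM at 30 h, so the 30 h libraries lay on both sides of day 0. Its log2 change was -0.07 (95% interval -0.60 to 0.47, edgeR adjusted p = 0.809), and 0.17 without 30 h replicate 3. Pds5b (ENSMUSG00000034021, chromosome 5, 150673739 to 150810690) had 82.9, 88.2 and 91.4 CPM at day 0 and 90.5, 83.2 and 63.0 CPM at 30 h. Its log2 change was -0.15 (95% interval -0.48 to 0.18, edgeR adjusted p = 0.365). Pds5b was called lower with library totals only, upper-quartile scaling and the GC trend removed (-0.64, -0.30 and -0.61, edgeR adjusted p = 0.00580, 0.0349 and 0.00839).

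Ctcf (ENSMUSG00000005698, chromosome 8, 105636568 to 105682922) had 165, 174 and 175 CPM at day 0 and 246, 214 and 156 CPM at 30 h. As with the SMC genes, replicate 3 fell below day 0 and the other 30 h libraries lay above it. The log2 change was 0.26 (95% interval -0.11 to 0.64, edgeR adjusted p = 0.176). It was 0.43 without 30 h replicate 3 (adjusted p = 0.000182) and -0.23 with library totals only (adjusted p = 0.259). Agrp, a neighbouring protein-coding gene on the opposite strand that overlaps the Ctcf locus, had at most 20 counts in any library. The other genes overlapping the 10 loci had at most 21 counts, against 1000 or more for each member, so reads assigned to overlapping genes were few.

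**Figure D2:**
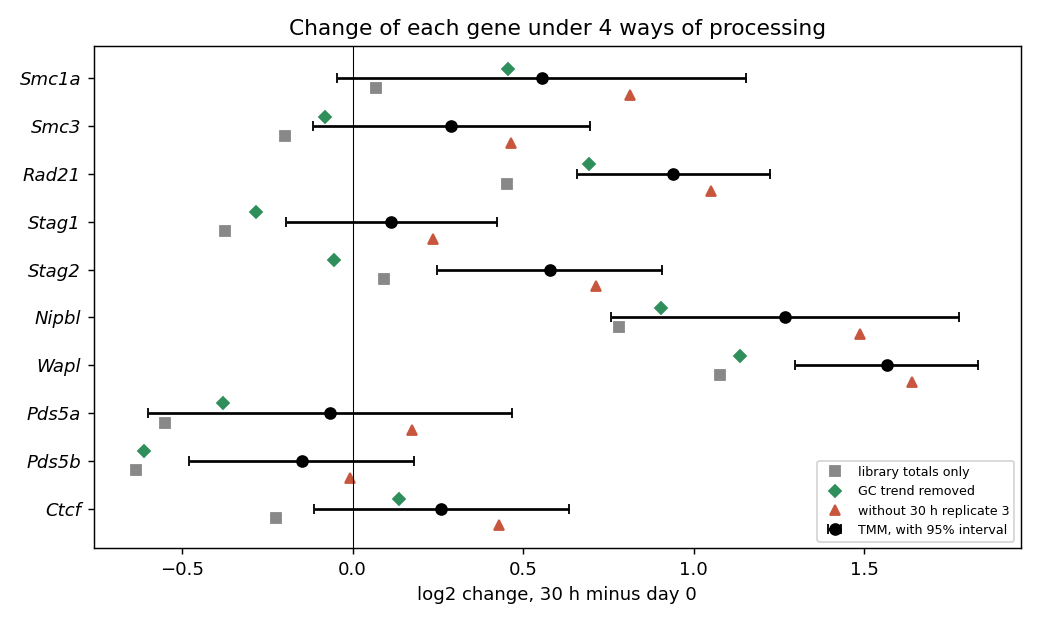
Log2 change of each gene at 30 h against day 0, with TMM scaling (black, 95% interval from the edgeR fit), library totals only (grey squares), the GC trend removed (green diamonds) and without 30 h replicate 3 (red triangles). Wapl, Nipbl, Rad21 and Smc1a lie above 0 in all 4 and Pds5b lies below 0 in all 4. Smc3, Stag1, Stag2, Pds5a and Ctcf have points on both sides of 0.

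Per kilobase of exon, Rad21 was the highest of the 10 at day 0, with 88.0 ± 1.58 FPKM (SD, n = 3), followed by Ctcf (35.2 ± 1.17), Smc3 (30.2 ± 1.41), Smc1a (25.3 ± 2.23), Stag2 (24.1 ± 1.06) and Wapl (19.3 ± 0.80). Pds5b (8.89 ± 0.44), Stag1 (8.58 ± 0.23), Pds5a (7.20 ± 0.45) and Nipbl (5.35 ± 0.52) formed a lower group. Neighbours within the spread of their libraries were Smc1a and Stag2, and Pds5b and Stag1. At 30 h Rad21 was again first, at 169 ± 24.7 FPKM, and Wapl had moved from sixth to second, at 57.1 ± 7.17. Ctcf (42.2 ± 9.41), Smc1a (37.2 ± 14.2), Smc3 (36.8 ± 9.17) and Stag2 (36.0 ± 6.69) could not be ordered within their spread, nor could Stag1 (9.28 ± 1.60), Pds5b (8.02 ± 1.45) and Pds5a (6.88 ± 2.33). Nipbl, last at day 0, stood at 12.9 ± 3.92. Among all genes tested, the level of Wapl went from the 82.5th to the 92.6th percentile and that of Nipbl from the 58.9th to the 74.3rd. With the length of the longest transcript in place of all exons, Rad21 stayed first and Wapl second at 30 h. Stag2 moved ahead of Smc1a and Smc3 there, and Nipbl ranked ninth. At day 0 that length put Stag1 at 16.3, Pds5a at 15.6 and Pds5b at 11.8 FPKM, so Pds5b fell below both.

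**Figure D3:**
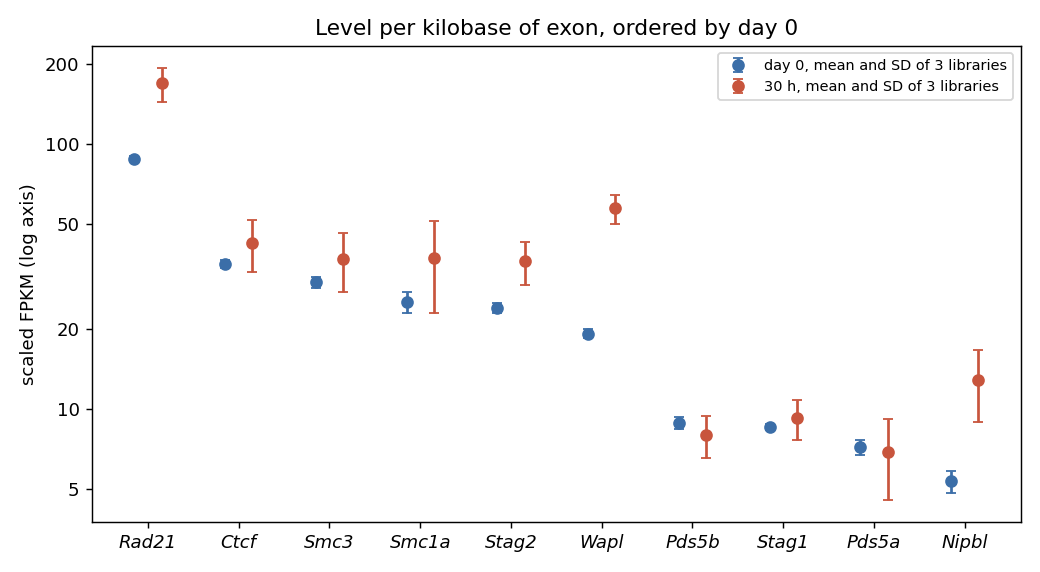
Scaled FPKM (log axis) of the 10 genes at day 0 (blue) and 30 h (red), as mean and SD of 3 libraries, ordered by the day 0 level. Rad21 is highest at both times, and the points of Wapl and Nipbl are the ones furthest apart between the groups.

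Ratios of 2 genes within a library do not depend on how libraries are scaled, and 8 pairs were compared, each by a two-sided exact permutation test of 3 against 3 libraries, which cannot give a p below 0.1. The groups did not overlap for 6 pairs, each with an exact permutation p = 0.1, the smallest possible, and 0.133 after Benjamini-Hochberg adjustment over the 8 pairs. None of the pairs could therefore pass 0.05, and the sizes below are read against the spread between libraries. Of single genes tested, 79.7% did not overlap between the groups, and the share over other gene pairs was not computed. Some genes, such as Smc3, enter several of the 8 pairs, so the pairs are not independent.

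Of the pairs compared, the largest shift was between Wapl and Smc3. There were 0.770, 0.760 and 0.764 Wapl counts per Smc3 count in the day 0 libraries and 1.70, 1.76 and 2.23 at 30 h, a 2.46-fold higher ratio. The Nipbl count per Smc3 count went from 0.301 ± 0.0160 to 0.588 ± 0.0459 (SD, n = 3 each), a 1.95-fold higher ratio. Loader and releaser thus both rose relative to Smc3. They were not set against another ring subunit. Rad21 itself rose 1.59-fold relative to Smc3, so the sizes given here hold for Smc3 alone. The ratio of Wapl to Nipbl was 2.70, 2.52 and 2.41 at day 0 and 2.79, 2.85 and 4.17 at 30 h. Replicates 1 and 2 lay only just above day 0 and replicate 3 well above, and with the GC trend removed the groups overlapped.

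Within the ring, Rad21 rose relative to Smc3, from 2.23 ± 0.106 to 3.57 ± 0.384 counts per Smc3 count, a 1.59-fold higher ratio. The balance between the SMC arms did not separate the groups: Smc1a per Smc3 was 0.833, 0.925 and 0.862 at day 0 and 1.16, 1.05 and 0.860 at 30 h (exact permutation p = 0.3, adjusted p = 0.343). Replicate 3 again sat among the day 0 values. With the GC trend removed, a setting added after seeing the data, the groups did not overlap for this pair (log2 difference 0.50).

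The STAG pair had the most even ratio among the 30 h libraries. Stag2 counts per Stag1 count were 1.96, 1.95 and 2.02 at day 0 and 2.73, 2.78 and 2.65 at 30 h, a 1.38-fold higher ratio in which replicate 3 did not stand apart. Per kilobase of exon this is 2.81 Stag2 for each Stag1 at day 0 and 3.88 at 30 h, but these values depend on the length used. By the longest transcript the ratio was smaller, with Stag2 at 32.4 and Stag1 at 16.3 FPKM at day 0, and 48.3 and 17.7 FPKM at 30 h. The groups also did not overlap with the GC trend removed, where the ratio was 1.17-fold higher. The Pds5 pair showed no separation, with 1.59 ± 0.0309 Pds5a counts per Pds5b count at day 0 and 1.65 ± 0.287 at 30 h (exact permutation p = 0.7, adjusted p = 0.7). At 30 h it was 1.94, 1.66 and 1.36, so that the 30 h libraries lay on both sides of day 0.

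Ctcf counts per Rad21 count were 0.442, 0.477 and 0.461 at day 0 and 0.302, 0.295 and 0.257 at 30 h, a 1.62-fold lower ratio, and 1.49-fold lower with the GC trend removed. As a share of the summed FPKM of the 10 genes, Wapl went from 7.65% ± 0.0955 to 13.9% ± 1.35 and Rad21 from 34.9% ± 0.986 to 40.9% ± 1.97 (SD, n = 3 each). Ctcf went from 14.0% ± 0.181 to 10.1% ± 0.459, Smc3 from 12.0% ± 0.226 to 8.80% ± 0.519, and Pds5b from 3.52% ± 0.0695 to 1.93% ± 0.0732.

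**Figure D4:**
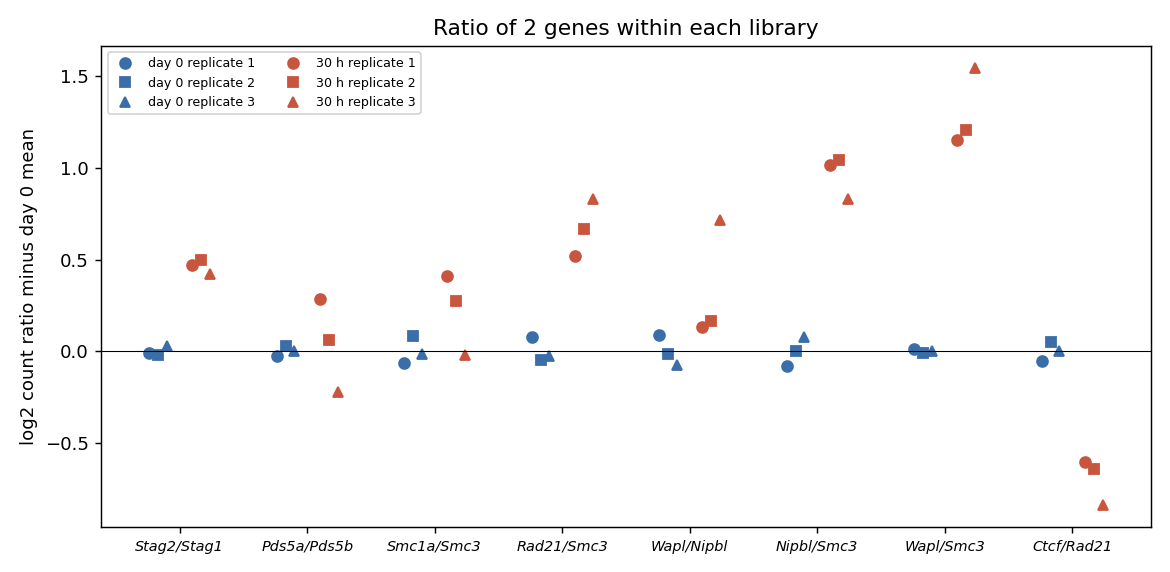
Log2 ratio of the counts of 2 genes within each library, minus the day 0 mean of the same pair, for 8 pairs (blue day 0, red 30 h, a marker shape for each replicate). The 30 h points lie apart from the day 0 points in 6 pairs, below them for Ctcf/Rad21, while they lie on both sides of them for Pds5a/Pds5b, and for Smc1a/Smc3 replicate 3 lies within them and the others above. Of single genes tested, 79.7% did not overlap between the groups.

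The 10 genes also share features of sequence that the choice of members did not use. Their longest transcripts had a median GC content of 42.4%, from 38.1% in Stag2 to 46.9% in Smc1a, against 49.9% for the 14363 protein-coding genes tested. They were long, with a median span of 83.3 kb against 24.4 kb, and had a median of 31 exons in the longest transcript against 8. Genes of low GC content were higher at 30 h more often. The median log2 change was 0.20 among the 3094 genes with a GC content above 40% and up to 45%, a bin that held 7 of the 10 genes, and -0.58 among the 3619 genes above 55%, which held none. With each library's dependence on GC removed, the median of the 10 genes was 0.04 in place of 0.42, with 3 called higher (Wapl 1.14, Nipbl 0.91 and Rad21 0.69 on the log2 scale) and 1 lower (Pds5b). The part of GC content in the changes was not tested.

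Other genes of the cohesin cycle were taken from a list of 12 that acetylate, protect or cut the ring, or act with it in mitosis, Mau2 included. Of these, 9 rose and 1 fell, with a list median of 1.24 on the log2 scale, where 34.4% of all genes tested were higher and 40.1% lower. Without 30 h replicate 3, 11 were higher and 1 lower. Esco2, the acetyltransferase that locks cohesin during DNA replication, rose most, from 39.5 ± 1.95 to 199 ± 3.44 CPM (log2 change 2.33, edgeR adjusted p = 8.60e-07). Hdac8, which removes the same acetyl mark from Smc3, was the member that fell, from 14.7 ± 0.459 to 9.08 ± 0.469 CPM (edgeR adjusted p = 0.000616). Plk1, a mitotic kinase that helps strip cohesin from chromosome arms, was the most abundant per length at both times. It had 176 ± 7.38 CPM at day 0 and 176 ± 64.8 CPM at 30 h (SD, n = 3 each) and did not pass, with a 95% interval of the log2 change from -0.58 to 0.57. Without 30 h replicate 3 it was called higher (0.26, edgeR adjusted p = 0.0352). Espl1, the protease separase that cuts Rad21, did not pass either (114 ± 2.48 and 125 ± 42.0 CPM, edgeR adjusted p = 0.623), and was likewise called higher without that library (0.37, adjusted p = 0.00201).

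Paralogs of the ring subunits and of Ctcf known from germ cells were scarce. Rad21l had 0 counts in all 6 libraries, and Smc1b and Ctcfl were too low to be tested. Stag3, a STAG protein of meiosis, rose from 2.48 ± 0.301 to 5.46 ± 0.919 CPM (edgeR adjusted p = 0.000731), and Rec8, a meiotic kleisin, fell from 5.48 ± 0.547 to 1.86 ± 0.358 CPM (edgeR adjusted p = 0.000153). Per kilobase both stayed below 2 FPKM, against 24.1 and 88.0 FPKM at day 0 for Stag2 and Rad21.

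The other SMC complexes are given for their counts, and their difference from cohesin was not tested. Among all genes tested, 34.4% were higher and 40.1% lower. In the SMC5/6 complex, which acts in DNA repair, all 6 genes tested were higher (median log2 change 0.87) and 1 gene, Eid3, was too low to test. Only 4 were higher with library totals only, and likewise 4 with the GC trend removed. Nsmce1, its ubiquitin ligase subunit, rose most, from 73.6 ± 5.65 to 282 ± 55.9 CPM, and was the most abundant per length. In the condensins, which compact mitotic chromosomes, 7 of 8 were higher (median 1.39), led by Smc4 (log2 change 2.25). Ncapd2, a HEAT-repeat subunit, was the most abundant condensin gene per length at day 0 (64.4 FPKM) and the one not called. It was called higher without 30 h replicate 3 (log2 change 0.64, edgeR adjusted p = 0.000103), which made 8 of 8. At 30 h Smc4 and Ncaph2 were level at 147 FPKM. Smc1a and Smc3, the cohesin counterparts of Smc4 and Smc2, were not called. Without 30 h replicate 3 both were called higher as well (log2 change 0.81 and 0.46, edgeR adjusted p = 0.000902 and 0.000723).

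Of 10 proteins known to bind Ctcf or to act in looping, 1 was higher and 3 were lower, with a median log2 change of -0.33. The shares over all genes tested were 34.4% higher and 40.1% lower. The number lower was 6 without 30 h replicate 1, and also 6 without 30 h replicate 3. Zfp143, a zinc finger factor found at promoters joined by loops, rose from 22.6 ± 0.677 to 39.9 ± 9.56 CPM (edgeR adjusted p = 0.00262), a call lost when scaled by library totals alone (adjusted p = 0.119). Patz1, a zinc finger protein, fell most, from 101 ± 2.39 to 31.3 ± 4.49 CPM (edgeR adjusted p = 1.10e-05), next to Parp1 (log2 change -1.69). Maz, a zinc finger factor that co-occupies Ctcf sites, was the most abundant per length (177 and 141 FPKM) and did not pass, but was called lower without 30 h replicate 1 or 3 (log2 change -0.40 and -0.19, edgeR adjusted p = 0.0154 and 0.0258). Maz was called higher once the GC trend was taken out (0.48, adjusted p = 0.0213), so its direction depended on the setting. Ldb1, which joins the beta globin enhancer to its promoter, was lower (log2 change -0.34, edgeR adjusted p = 0.0415). The call of Ldb1 was lost without any 1 of the day 0 libraries or without 30 h replicate 2 (edgeR adjusted p = 0.0621 to 0.102), against a 1.5-fold change, and with the GC trend removed, where its log2 change was 0.10.

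Because cohesin is loaded, acetylated and removed with the cell cycle, markers of its phases are given beside these values. Among all genes tested, 34.4% were higher and 40.1% lower. Of 12 S phase genes 5 were higher and none lower (list median 0.25), with Ccne2, a cyclin of the G1 to S transition, rising most (log2 change 2.28). Mcm5, a helicase subunit, was the most abundant of them per length at day 0 (200 FPKM, 224 at 30 h, not called). Pcna was the most abundant at 30 h (262 FPKM, 117 at day 0) and was called higher (log2 change 1.16, edgeR adjusted p = 1.31e-05). Without 30 h replicate 3, 7 of the 12 S phase genes were higher, Mcm5 among them (0.32, edgeR adjusted p = 0.000903), and 2 lower. Without 30 h replicate 1, 3 were lower. Of 12 mitosis genes 10 were higher and none lower (median 0.96), with Mki67 rising most (3.37), and 12 of 12 were higher without 30 h replicate 3. Per length, Cdc20 led the mitosis genes at day 0 (128 FPKM) and Ccnb2 at 30 h (334 FPKM). The lowest 30 h value was in replicate 3 for 9 of the 12 S phase and 10 of the 12 mitosis genes, as it was for all 10 cohesin and Ctcf genes. The same held for 9 of the 10 CTCF partners and 4 of the 5 progenitor markers. It held for 3 of the 7 SMC5/6 genes and for 43.5% of all genes tested. Summed CPM of the mitosis genes was 5903, 4936 and 3738 in 30 h replicates 1, 2 and 3, and that of the 10 genes 2940, 2486 and 1947. The part of the cell cycle in the changes of the 10 genes was not tested.

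**Figure D5:**
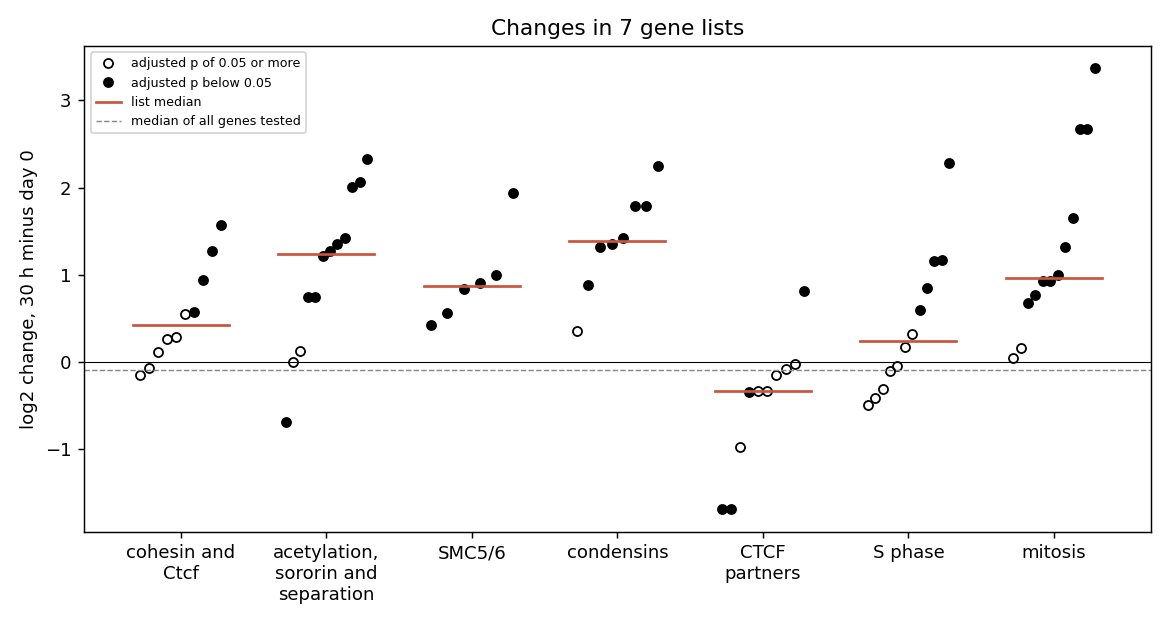
Log2 change at 30 h against day 0 of each tested gene in 7 lists (filled circles, edgeR adjusted p below 0.05; open circles, 0.05 or more), with the list median in red and the median of all genes tested as a dashed line. Cohesin and Ctcf have 4 filled circles of 10, all above 0, and there are 6 of 6 in SMC5/6 and 7 of 8 in the condensins. Of all genes tested, 34.4% were called higher and 40.1% lower. These counts depended on the setting: without 30 h replicate 3, 8 of the 10 cohesin and Ctcf genes were higher.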

How the data were processed

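RNA was measured in 6 libraries, 3 per group. The authors deposited whole-number counts per Ensembl gene, 1 file per library. Per the submitters' processing notes, the tools were HTSeq 0.6.1p1, STAR, cutadapt 1.13 and DESeq2, on build mm10. The strand setting is not stated in those notes. Symbols, lengths and GC content (longest transcript) came from GENCODE M21, which matched 54165 of the 54232 IDs. Genes kept by filterByExpr were tested with edgeR 4.0.16 (R 4.3.3), TMM scaling (factors 1.18 to 1.19 at day 0, 0.82 to 0.87 at 30 h), a robust quasi-likelihood fit and Benjamini-Hochberg adjustment at 0.05. Standard errors and intervals came from the F statistic. The GC alternative removed a spline of each library's log counts on GC. The steps were tested on simulated data. In the simulation of changed genes, few genes changed and both groups had the same spread, unlike in these libraries. It therefore cannot vouch for the scaling or the calls here. Members and lists were chosen with earlier results of these data known. Named were all members and, per list, the strongest call in either direction, the most abundant gene per length and undetected genes; Mau2, Espl1, Parp1, Ldb1 and Agrp beyond that were named after their values were seen. Alternatives were other scalings, filters and tests (DESeq2 1.42.0, limma 3.58.1), a replicate block, and each library left out. Replicates differed by more than sampling noise (chi-square per degree of freedom 3.15 to 59.3).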

Additional observations from a re-analysis of the deposited data

How the results depend on the processing

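Wapl, Nipbl and Rad21 were called higher under all 18 alternatives. With library totals only, which moved the median of all genes from -0.09 to -0.58, the log2 change was -0.20 for Smc3, -0.37 for Stag1, 0.091 for Stag2, -0.64 for Pds5b and -0.23 for Ctcf, 2 of the 10 were lower, and their median was -0.064. Of the calls over all genes, 46.1% were higher with TMM and 29.1% with totals only. With upper-quartile scaling Stag1 was at -0.033 and Pds5b at -0.30, called lower (1 of 10). RLE size factors and DESeq2 called Smc1a (0.591 and 0.5906). Against a 1.5-fold change Stag2 (0.58) was not called. With the GC trend removed Smc3 was at -0.081, Stag1 at -0.28, Stag2 at -0.053 and Pds5b at -0.61, with 1 of 10 lower, and the log2 differences were 0.22 for Stag2/Stag1 and 0.50 for Smc1a/Smc3. With the GC trend removed together with the replicate block these genes were at -0.11, -0.30, -0.079 and -0.63, again with 1 lower.

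The replicate number as a block left the calls of the 10 genes at 4 higher and 0 lower, and 5254 higher and 6277 lower over all genes. Deviations of same-numbered libraries correlated at -0.105, 0.105 and -0.029, so the numbers were not taken to pair samples, and not every library correlated best with its own number.

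Leaving out each library in turn, between 4 and 8 of the 10 were higher, 8 without 30 h replicate 3. The range of log2 changes was 0.30 to 0.81 for Smc1a, 0.16 to 0.46 for Smc3, 0.039 to 0.24 for Stag1, -0.26 to 0.17 for Pds5a and 0.16 to 0.43 for Ctcf.

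Among CTCF partners the number lower (3) was 9 with library totals only, 7 with upper-quartile scaling, 6 with either other filter, 5 with the GC trend removed and the replicate block, and 2 to 6 with a library left out (6 without 30 h replicate 1 or 3). The number higher (1) was 0 with totals only or against 1.5-fold, and 2 with the GC trend removed, with or without the block. S phase genes lower (0) were 5 with totals only, 3 with upper-quartile scaling or either other filter, 1 with DESeq2, the replicate block or the GC trend removed, and 0 to 3 with a library left out (3 and 2 without 30 h replicates 1 and 3). SMC5/6 genes higher were 3 with the GC trend removed and the block, Hdac8 was not called against 1.5-fold (0 lower), and with no filter 2 meiotic genes were lower. The cause of these shifts was not tested. At 30 h the spread between libraries, not counting depth, limited precision.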
